A study of Mus musculus with 24 samples.

Results

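Among 18 hydronephrotic kidneys of male megabladder (mgb-/-) mice, 4 still carried Acsm3 mRNA near the control level and 14 had lost most of it. Both classes were compared across all other genes on the arrays. The classes are not groups of the study and were selected on the measured Acsm3 level alone. The brighter Acsm3 probe was read as log2 intensity minus the 75th percentile of its array, and a kidney within 2.5 log2 units below the mean of the 6 control kidneys was termed retained. The retained kidneys were mild 4, moderate 2, moderate 5 and severe 6, named by grade and replicate number, and the other 14 were termed lost. The series holds 24 whole kidneys, 1 per Agilent array, from male mice labelled Young Adult. The study's methods describe the control and mgb-/- mice as age-matched and a few weeks old. The 6 controls were mgb+/+ and the other 18 were mgb-/-, of which 7 were graded mild, 5 moderate and 6 severe from the parenchyma left on ultrasound. All tissue was snap frozen. The labels give neither the age of each mouse nor whether both kidneys of an animal were used, so the p-values measure the spread between these kidneys.

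In the mgb-/- mouse the bladder lacks normal smooth muscle, urine backs up into the kidney, and the renal pelvis widens while the parenchyma thins. Acsm3 encodes a mitochondrial medium-chain acyl-CoA synthetase, which couples medium-chain fatty acids to coenzyme A. The mouse proximal tubule differs between the sexes: many of its transporters, cytochromes P450, steroid-converting enzymes and glucuronosyltransferases are expressed at higher levels in males under androgens, and others at higher levels in females.

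Acsm3 chose the classes, so its levels are given as a description. In the 6 controls the level ran from 6.05 to 7.00 with a mean of 6.65 ± 0.32 (SD), on the log2 scale relative to the 75th percentile, which is used for all levels below. The retained kidneys had 4.70 in mild 4, 6.80 in moderate 2, 4.92 in moderate 5 and 6.77 in severe 6. Moderate 2 and severe 6 thus lay inside the control range, and mild 4 and moderate 5 below it. The lost kidneys ran from -2.86 to 3.32 with a median of 0.70. The retained kidney nearest the limit was mild 4, and the lost kidney nearest to it was severe 3 at 3.32, which is 3.33 below the control mean. Acsm3 stood well above background on all 24 arrays, and its other probe gave the same 4 kidneys.

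**Figure D1:**
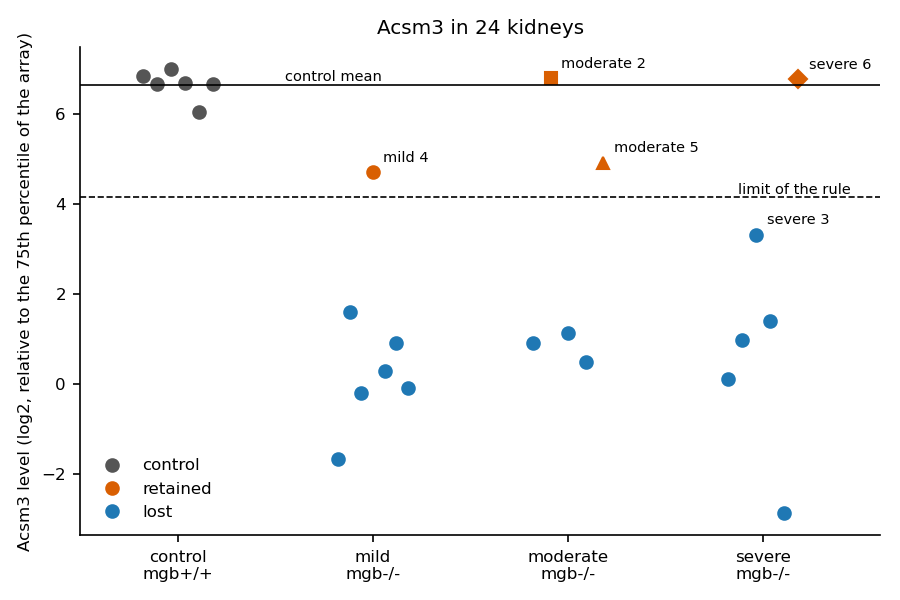
Acsm3 level (log2, relative to the 75th percentile of the array) of each of 24 kidneys by grade, with 1 point per kidney, the control mean and the limit of the rule. The 4 retained kidneys come from all 3 grades and lie between 4.70 and 6.80, while the 14 lost kidneys lie at or below 3.32.

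Grade, slide and array quality were not used by the rule. The retained kidneys were 1 of 7 mild, 2 of 5 moderate and 1 of 6 severe (exact test of the table, p = 0.623), and 1, 2 and 1 of them lay on the 3 slides (exact test, p = 1). The share of probes well above background ran from 62.0% to 63.5% on the retained arrays and from 55.1% to 70.7% on the lost arrays (exact permutation test over kidneys, two-sided, p = 0.765). The Y-linked genes Ddx3y, Eif2s3y and Uty were well above background in all 24 kidneys. No pair of kidneys within a class correlated above 0.991 over genes.

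Among the lists read here, 8 of 14 glucuronosyltransferases and related Ugt enzymes were higher in the retained than in the lost kidneys. So were 6 of 13 carboxylesterases. Of 17 markers of the first and second proximal segments 0 passed the test, though 16 had a positive difference. Of 28455 genes tested without Acsm3, 357 were higher in retained than in lost kidneys (1.25% of genes tested) and 421 were lower (1.48%), 2.73% in all, at an adjusted p under 0.05 and at least 2-fold by limma. The 4 retained kidneys differed from the controls in 15 genes (0.0527%), all of them higher, a count of 3 without moderate 2 or severe 6 and of 84 with array weights, and 1587 genes (5.58%) passed an unadjusted p under 0.05. The 14 lost kidneys differed from the controls in 1559 genes (5.48%), of which 947 (3.33%) were higher and 612 (2.15%) lower, and 10161 (35.7%) passed an unadjusted p under 0.05. Between retained and lost kidneys 7391 (26%) did. The comparisons of retained and of lost kidneys with controls used the same 6 control kidneys. They rest on 4 retained and 14 lost kidneys, so their counts of calls are not on the same footing. The median difference between retained and lost kidneys over all genes was 0.03 on the log2 scale. The p-values describe association with the Acsm3 split, since kidneys were not assigned to the classes, and in whole-kidney RNA fewer cells of a type and less RNA per cell cannot be told apart.

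Of the 357 higher genes, 337 (94.4%) lay within 2-fold of the control mean in the retained kidneys. So did 379 (90.02%) of the 421 lower genes. The same share over all genes was not computed, so these shares do not set the called genes apart. Every retained kidney lay above every lost kidney in 219 of the 357, where 3.68% of all genes showed that order, and below in 108 of the 421, where 1.25% of all genes did. The direction was the same within each of the 3 slides for 352 of the 357 and 412 of the 421 genes. Within each of the 3 grades it was the same for 354 and 407. The same kidneys gave the calls, so this agreement is a description and no independent support. The largest difference, 8.97 on the log2 scale, came from a probe for which the tables used here give no name. Without moderate 5 the count of lower genes was 257. With mild 4 averaged with moderate 5 and moderate 2 with severe 6, an alternative chosen after seeing the data, 170 genes were higher and 100 lower.

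The study set Acsm3 apart as male-biased, and since it chose the classes it was left out. All 11 other genes of that group were higher in the retained kidneys, with a median difference of 3.94 on the log2 scale. The study listed these genes for their lower level in the mgb-/- kidneys among these same 24, so the count is not independent evidence of the direction. Their median difference from the controls was -0.19 in the retained kidneys and -4.09 in the lost kidneys. Within 2-fold of the control mean lay 7 of the 11 in mild 4, 9 in moderate 2, 8 in moderate 5 and 9 in severe 6. Among the lost kidneys, severe 3 had 2 of the 11 within 2-fold, moderate 4 had 1 and the other 12 kidneys had 0. All 11 calls held without each kidney in turn, and 7 of them held at a limit of 1.5 log2 units, where only moderate 2 and severe 6 counted as retained.

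**Figure D2:**
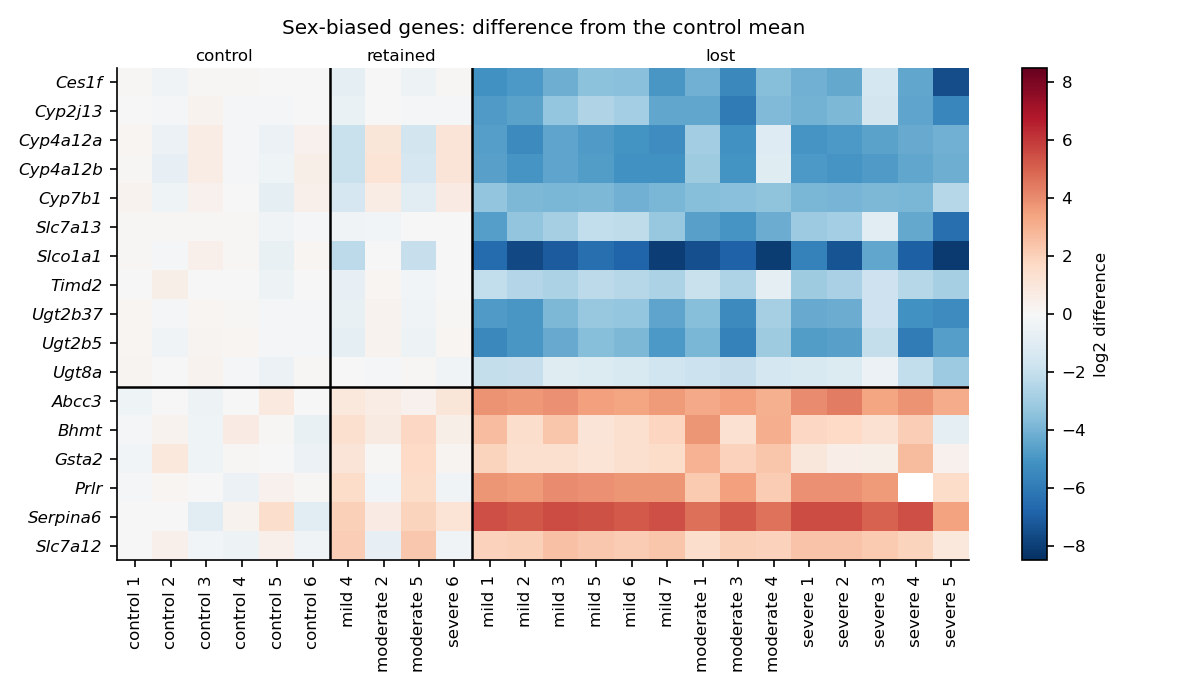
Difference of each kidney from the control mean (log2, color) for 11 male-biased genes of the study, Acsm3 left out, and its 6 female-biased genes in 6 control, 4 retained and 14 lost kidneys. The male-biased genes had a median difference from the controls of -0.19 in the retained and -4.09 in the lost kidneys, and the female-biased genes 0.82 and 2.70. The white cell is a missing value, Prlr in severe 4, whose spot was left out as an outlier.

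Transporters of organic anions held the largest difference among the genes named here. Slco1a1, an organic anion transporting polypeptide of the proximal tubule, had levels of 0.98 in mild 4, 3.21 in moderate 2, 1.24 in moderate 5 and 3.13 in severe 6. The controls ran from 2.56 to 3.59 (median 3.31) and the lost kidneys from -4.98 to -1.24 (median -3.82). Moderate 2 and severe 6 lay within the control range, mild 4 and moderate 5 between the controls and the lost kidneys, and retained and lost kidneys did not overlap. The difference between the classes was 5.92 (SE 0.50, adjusted p = 2.03e-07) on the log2 scale. Of 34 organic anion and cation transporters tested, 6 were higher and 3 lower in the retained kidneys, beside a list median of 0.37. Slc22a7, the anion transporter Oat2, was higher by 2.49 (SE 0.37), Slc22a26 by 3.14 (SE 0.33) and Slc22a28 by 2.67 (SE 0.47), each without overlap between the classes. Slc22a6, the anion transporter Oat1, differed by 1.15 (SE 0.35, adjusted p = 0.033), and its call was lost without moderate 2 (adjusted p = 0.11 by limma), moderate 5 (0.0853) or severe 6 (0.118), and without severe 5, where the difference was 0.96. Slc22a22 differed by 1.57, a call lost without moderate 2 (adjusted p = 0.0542 by limma) or moderate 5 (0.0664). The lower ones were Abcc3, given below, Slc22a27 (-1.40) and Slc22a29 (-1.23), and the last 2 calls were lost without moderate 2 (adjusted p = 0.13 and 0.162 by limma) or severe 6 (0.14 and 0.202), that of Slc22a29 also at 14 other omissions. Outside that list, Slc7a13, an amino acid transporter of the third proximal segment, was higher by 3.40 (SE 0.61).

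Glucuronosyltransferases attach glucuronic acid to steroids, bile acids and drugs. Of 14 tested in a list of these and related Ugt enzymes, 8 were higher in the retained kidneys and 0 lower, with a list median of 1.39. Ugt2b5 had 2.24 in mild 4, 3.35 in moderate 2, 2.602 in moderate 5 and 3.21 in severe 6. The controls ran from 2.70 to 3.26 (median 3.06) and the lost kidneys from -2.92 to 0.98 (median -1.63). The retained kidneys lay in or next to the control range and above every lost kidney, with a difference of 4.23 (SE 0.48, adjusted p = 5.54e-06). Ugt2b36 and Ugt2b37 were each higher by 3.94, Ugt2b35 by 3.74 and Ugt2b38 by 3.51, and their adjusted p-values by limma ran from 1.11e-05 to 0.00018. The Ugt2b genes are close in sequence, so a probe may read more than 1 of them. Ugt3a1 was higher by 2.06, Ugt2a3 by 1.25, and Ugt8a, which makes galactosylceramide, by 1.54 (SE 0.28).

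The 250 bases before the annotated start are shown for Acsm3, which set the classes, and for Slco1a1 and Ugt2b5, as members of the groups that moved with it. Capitals mark AGGTCA, a half-site of many nuclear receptors, or its reverse complement TGACCT. The sequences are from RefSeq, build GRCm38.p6, written 5′ to 3′ on the strand of the gene.
Acsm3, chr7:119760673-119760922, plus strand: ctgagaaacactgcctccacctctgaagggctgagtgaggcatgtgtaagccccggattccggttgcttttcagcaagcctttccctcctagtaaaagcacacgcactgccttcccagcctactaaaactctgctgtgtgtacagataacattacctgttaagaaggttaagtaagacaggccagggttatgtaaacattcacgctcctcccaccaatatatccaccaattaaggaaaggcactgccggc
Slco1a1, chr6:141946963-141947212, minus strand: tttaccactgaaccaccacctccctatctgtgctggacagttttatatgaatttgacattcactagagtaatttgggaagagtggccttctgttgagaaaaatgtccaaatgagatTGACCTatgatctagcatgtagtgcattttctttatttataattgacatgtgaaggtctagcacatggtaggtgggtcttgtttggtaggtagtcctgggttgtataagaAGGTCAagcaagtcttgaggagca
Ugt2b5, chr5:87140341-87140590, minus strand: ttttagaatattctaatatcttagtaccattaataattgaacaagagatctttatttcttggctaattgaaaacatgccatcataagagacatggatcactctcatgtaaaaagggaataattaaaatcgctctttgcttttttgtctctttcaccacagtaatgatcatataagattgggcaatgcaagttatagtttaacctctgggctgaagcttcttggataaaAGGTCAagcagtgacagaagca
The Acsm3 stretch held 0 matches, that of Slco1a1 2 and that of Ugt2b5 1. The stretches of Prlr, a gene lower in the retained kidneys and not shown, held 0 each. AGGTCA on either strand occurred in 15% of 260 such promoters of genes higher in the retained kidneys, in 16.1% of 199 of lower genes and in 14% of all 32851. AGAACA, a half-site of steroid hormone receptors, occurred in 15.4%, 12.6% and 16.1%, and the Stat motif TTCNNNGAA in 7.31%, 8.04% and 7.02%. These shares lay near those of all promoters, and a match is a run of letters and not a binding site. The promoters found belonged to 208 of the higher and 146 of the lower genes. Of 8 promoters of 6 male-biased genes of the study, 3 held AGGTCA, 0 AGAACA and 0 TTCNNNGAA.

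Carboxylesterases hydrolyze esters of lipids and drugs. Of 13 tested, 6 were higher in the retained kidneys and 0 lower, with a list median of 1.14. Ces1f had 5.91 in mild 4, 6.66 in moderate 2, 6.22 in moderate 5 and 6.72 in severe 6, where the controls ran from 6.34 to 6.77 (median 6.70) and the lost kidneys from -0.91 to 5.14 (median 2.42). The classes did not overlap, and the difference was 4.11 (SE 0.58, adjusted p = 9.14e-05). Ces1g split the retained kidneys: moderate 2 and severe 6 had 0.12 and -0.07, while mild 4 had -4.16, inside the lost range, and moderate 5 had -2.78. The difference of Ces1g was 4.31 (SE 0.77, adjusted p = 0.000937). Ces2b and Ces2c were higher by 2.18 and 2.02. Ces2e was higher by 1.14, and without severe 6 by 1.00, just short of 2-fold. Ces1e was higher by 1.34 (adjusted p = 0.0414), a call lost without any 1 of the 4 retained kidneys or without moderate 1, moderate 3 or severe 2, with adjusted p-values by limma from 0.0528 to 0.127.

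Of 39 cytochromes P450 of families 2 and 4, 7 were higher and 2 lower in the retained kidneys, and the list median of 0.13 was near that of all genes. Cyp4a12a and Cyp4a12b, close copies that hydroxylate arachidonic acid, were higher by 4.09 and 4.14 (SE 0.61 and 0.60). Cyp4a12b had 0.96 in mild 4, 3.97 in moderate 2, 1.41 in moderate 5 and 3.95 in severe 6, where the controls ran from 2.10 to 3.48 (median 2.82) and the lost kidneys from -2.33 to 1.78 (median -1.97). Moderate 2 and severe 6 lay above every control, and mild 4 and moderate 5 overlapped the lost range. Cyp2d9, a steroid hydroxylase, had 2.48, 2.03, 2.70 and 2.17 in the same order, all above the highest control at 1.84, and a lost median of -1.87. Its difference from the lost kidneys was 3.98 (SE 0.63, adjusted p = 0.000317). Cyp2j13 was higher by 3.82 (3.42 and 1.23 at its other probes), Cyp4b1, a fatty acid hydroxylase, by 2.29, and Cyp2e1, which oxidizes ethanol, by 1.52. Cyp2a4 was higher by 1.61, a call lost without mild 2 (adjusted p = 0.0507 by limma) or any retained kidney (up to 0.119). Cyp4a14, another fatty acid hydroxylase, was lower (-1.75, SE 0.39). Cyp2d34 was lower at its brightest probe (-1.41), but its other probe gave 3.44, so its direction is not settled, and the call was lost without moderate 2 (adjusted p = 0.123 by limma) or severe 6, where the difference was -0.98. Cyp3a13 differed by -2.90 (SE 0.47, adjusted p = 0.00037) at its brightest probe, which was not well above background in any retained kidney, and by -0.85 at its other probe, well above background on 22 of 24 arrays and under 2-fold.

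Among 21 hydroxysteroid and steroid-converting enzymes, 7 were higher and 1 lower in the retained kidneys, with a list median of 0.73. Akr1c14, a hydroxysteroid dehydrogenase that reduces dihydrotestosterone, had 3.77 in mild 4, 3.71 in moderate 2, 3.93 in moderate 5 and 3.52 in severe 6. The controls ran from 2.99 to 4.02 (median 3.65) and the lost kidneys from -2.67 to 1.55 (median -0.90). All 4 retained kidneys lay within the control range and above every lost kidney, with a difference of 4.46 (SE 0.49, adjusted p = 3.94e-06). Akr1c21 and Akr1c18, enzymes of the same family, were higher by 2.22 and 2.16, Hsd3b3 by 2.22 and Hsd17b11 by 1.95, while Hsd17b14 was lower (-1.41). Cyp7b1, an oxysterol and steroid hydroxylase, had 1.74 in mild 4, 3.74 in moderate 2, 2.24 in moderate 5 and 3.84 in severe 6, where the controls ran from 2.34 to 3.59 (median 3.32) and the lost kidneys from -0.97 to 0.70 (median -0.68). Its classes did not overlap, and the difference was 3.42 (SE 0.31, adjusted p = 4.8e-07).

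Cyp11a1, an adrenal transcript, was well above background in 1 of 4 retained and 6 of 14 lost kidneys. Mild 4 carried Cyp11a1, Cyp11b1 and Star, which define adrenal steroid synthesis, at 3.81, 5.06 and 4.26. In the other 3 retained kidneys Cyp11a1 stood between -7.70 and -7.43, beside -8.12 to -7.55 in the controls, and it was not well above background there. The lost kidneys ran from -7.82 to 3.37 (median -6.42), the highest being moderate 1. Srd5a2, a steroid reductase that makes dihydrotestosterone, passed the test (1.60, adjusted p = 0.045) through mild 4, at 1.55 against -2.39, -2.86 and -2.31 in the others. Without mild 4 its difference was 0.58 with an adjusted p of 0.329 by limma, and its call was also lost at the omission of any of 15 other kidneys. Without mild 4 the list had 6 higher and 2 lower genes. Over the list of 10 genes of adrenal, liver, muscle, fat and blood, 0 passed, and the mean level ran from -3.47 to 1.21 in the retained, -4.15 to 1.17 in the lost and -3.26 to -2.36 in the control kidneys. The part of adrenal RNA in these results was not tested.

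Of 19 hormone receptors and genes of growth hormone signalling, Srd5a2 was the 1 that passed at the brightest probe of each gene, and the list median of 0.03 equaled that of all genes. Ghr, the growth hormone receptor, was higher in every retained than in every lost kidney, at a difference of 0.83 (SE 0.21, adjusted p = 0.012) that was under 2-fold. Its other probe, well above background on all 24 arrays, gave 1.72, and Ghr was called in 1 of 43 other settings. Of 12 genes known to be induced by androgens in the kidney, 6 were higher and 0 lower, with a median of 1.34. Of these 12 genes, 8 also stand in another list read here, so the counts of the lists are not separate. Kap, the kidney androgen-regulated protein, ran from 9.01 to 9.52 in the retained and from 8.11 to 9.49 in the lost kidneys, a difference of 0.21 (SE 0.18, adjusted p = 0.523). Odc1, which makes putrescine, lay above every lost kidney in all 4 retained kidneys, but the lost kidneys spread from -3.81 to 5.40 (median 4.67) and the difference of 2.24 had an adjusted p of 0.149 by limma. Gusb, a lysosomal glucuronidase, differed by 0.56 (SE 0.17, adjusted p = 0.0334), under 2-fold, and Nudt19 by 1.10 (SE 0.38, adjusted p = 0.0571).

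**Figure D3:**
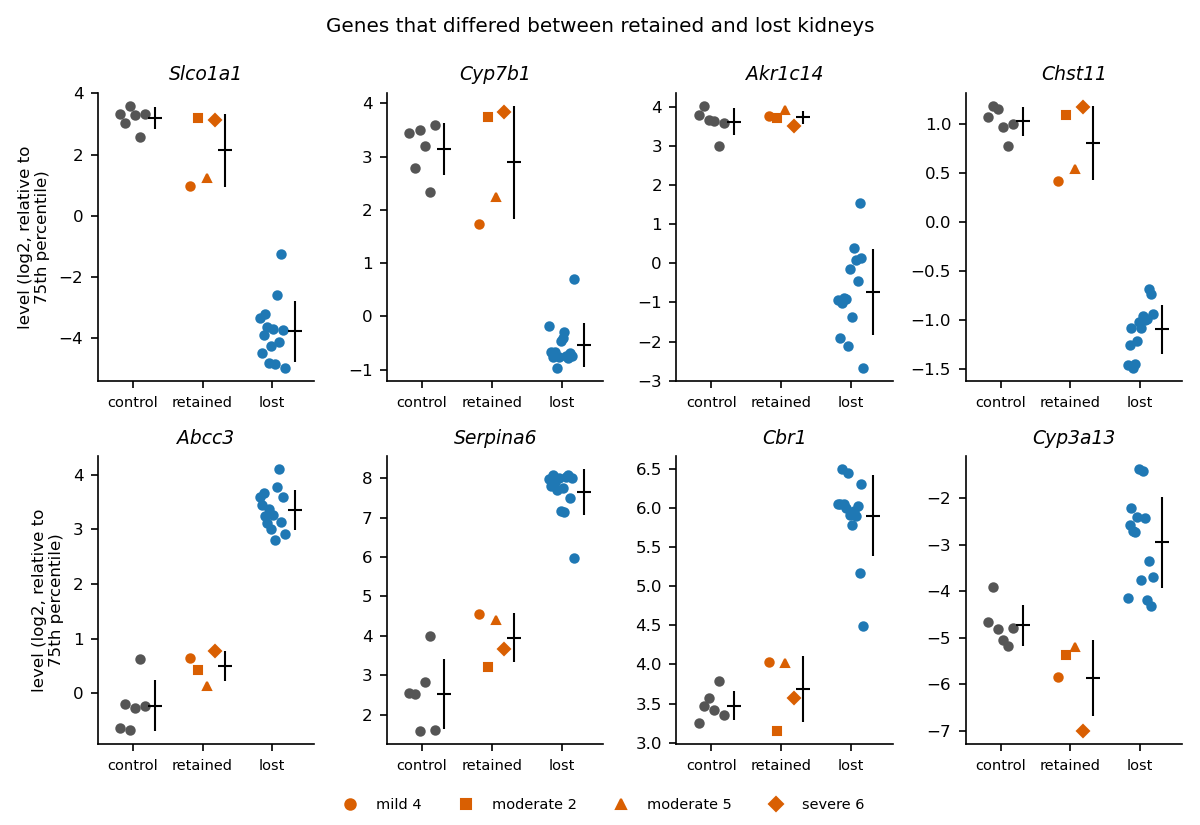
Level (log2, relative to the 75th percentile) of 8 genes in each control, retained and lost kidney, with the mean and SD of each class as black bars. Slco1a1, Cyp7b1, Akr1c14 and Chst11 were higher, and Abcc3, Serpina6, Cbr1 and Cyp3a13 lower, in the retained than in the lost kidneys, with no overlap between those classes in any of the 8 at the brightest probe of each.

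Other genes that separated the classes came from several pathways. Chst11, which sulfates chondroitin, had 0.41 in mild 4, 1.09 in moderate 2, 0.54 in moderate 5 and 1.17 in severe 6, where the controls ran from 0.77 to 1.18 (median 1.03) and the lost kidneys from -1.49 to -0.69 (median -1.05). The retained kidneys lay close to the controls, and the difference was 1.90 (SE 0.15, adjusted p = 4.87e-08). Chst7, another carbohydrate sulfotransferase, was higher by 3.30. Gstp3, a glutathione S-transferase that was not in the list of that family, had -0.85 in mild 4, 1.45 in moderate 2, -0.63 in moderate 5 and 1.59 in severe 6, against 1.17 to 1.73 in the controls and -6.06 to -2.57 in the lost kidneys. Its difference was 5.48 (SE 0.50, adjusted p = 4.8e-07), while 0 of the 23 transferases listed passed. Gm5820, a predicted gene, had the smallest adjusted p of the named genes, with retained levels from -2.39 to -2.25, lost levels from -5.30 to -4.33, and a difference of 2.498 (SE 0.16, adjusted p = 2.64e-09).

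Asah1, the acid ceramidase, was higher by 1.29 and Degs2, which desaturates and hydroxylates dihydroceramide, by 1.65. Inmt, which methylates indoleamines, was higher by 4.70 (SE 1.02), with lost kidneys spread from -6.48 to 4.03 (median 1.49). C1qtnf3, a secreted protein of the C1q family, was higher by 2.58, Kif20b, a kinesin, by 2.43, and Timd2, a ferritin receptor, by 2.17. Ctxn3, Gbp8, Cabp2, Eddm3b and Ptchd1 were higher by 4.56, 4.20, 3.30, 2.01 and 2.01. In all 11 of these genes every retained kidney lay above every lost kidney with a value. Among all 357 higher genes 219 showed that order, beside 3.68% of all genes, and named genes were partly chosen by this comparison.

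Of 5 other medium-chain acyl-CoA synthetases tested, 0 passed in either direction, and the list median was 0.42. Acsm1 had 4.22 in mild 4, 4.69 in moderate 2, 4.59 in moderate 5 and 4.72 in severe 6, against 2.26 to 4.09 in the lost kidneys, and its difference of 1.00 (SE 0.24, adjusted p = 0.00861) fell just short of 2-fold. Acsm1 was called in 12 of 43 other settings, and its other probe gave 1.13. Acsm2 differed by 0.90 (SE 0.26, adjusted p = 0.0269) and Acsm5 by 0.37 (SE 0.28, adjusted p = 0.467). In RefSeq's order of genes these 3 lie 4 to 6 places before Acsm3. Nearer on that side Thumpd1 differed by 0.08, and on the other side Eri2 differed by -0.58 and Rexo5 by 0.55, none of them called. Of 28 genes of fatty acid oxidation and PPAR-alpha targets, 2 were higher and 3 lower. Cd36, the fatty acid translocase, had 2.59 in mild 4, 3.62 in moderate 2, 2.38 in moderate 5 and 3.73 in severe 6, with lost kidneys from -1.27 to 1.54 (median 0.84), and was higher by 2.36 (SE 0.34, adjusted p = 0.000107). Ehhadh, a peroxisomal enzyme of beta-oxidation, was higher by 1.06, and by 0.93 without severe 5. The lower ones included Cyp4a14, given above, and Pdk4, an inhibitor of pyruvate dehydrogenase (-1.69). The Pdk4 call was lost without moderate 5 (adjusted p = 0.0657 by limma) or severe 6 (0.0582). Among 31 retinoid genes, Adh1, which oxidizes retinol and ethanol, was higher (1.77, SE 0.22) and Rdh19 lower (-2.47, SE 0.42).

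Among the genes lower in the retained kidneys, Abcc3, an efflux pump for organic anion conjugates, had 0.64 in mild 4, 0.42 in moderate 2, 0.14 in moderate 5 and 0.77 in severe 6. The controls ran from -0.67 to 0.62 (median -0.26) and the lost kidneys from 2.80 to 4.10 (median 3.32). The highest control was control 5, and the other controls ran from -0.67 to -0.19, below every retained kidney. Mild 4 and severe 6 also lay just above control 5. Every retained kidney lay below every lost kidney, with a difference of -2.86 (SE 0.21, adjusted p = 3.09e-08). Cbr1, a carbonyl reductase, had 4.03 in mild 4, 3.14 in moderate 2, 4.01 in moderate 5 and 3.57 in severe 6, with controls from 3.25 to 3.79 (median 3.44) and lost kidneys from 4.50 to 6.50 (median 6.01). Its classes did not overlap, and the difference was -2.21 (SE 0.25, adjusted p = 4.89e-06). Setd4, the next gene to Cbr1 in RefSeq's order, was lower (-1.87, SE 0.17), and Clic6 and Cldn14 nearby differed by -1.79 and -1.49, with Runx1 and Cbr3 between them not called.

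Mro had the largest such difference, -3.98 on the log2 scale (SE 0.41) at its brightest probe and -1.37 at its other, with retained levels from -4.88 to -4.08 and lost levels from -2.63 to 0.24. Serpina10, an inhibitor of coagulation proteases, differed by -3.03, and Slc17a2, of the sodium-phosphate transporter family, by -2.91. Cited1, a transcriptional coregulator of the developing nephron, differed by -2.21, Cdh6, a cadherin of developing tubules, by -1.34, and Cdkn1a, the cell cycle inhibitor p21, by -1.85 at its brightest probe. The other probe of Cdkn1a, well above background on 21 arrays, gave 0.39, so its direction is not settled, and the mean of both gave -0.73 and no call. Sphk1, which makes sphingosine 1-phosphate, differed by -1.53 and its receptor S1pr1 by -1.19. Apoe, Arg2, Map2 and Tmc5 differed by -1.30, -1.29, -1.61 and -1.61. In each of these 12 genes every retained kidney lay below every lost kidney at the brightest probe. Among all 421 lower genes 108 showed that order, beside 1.25% of all genes, and named genes were partly chosen by this comparison.

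The study listed 6 female-biased genes for their higher level in these mgb-/- kidneys. Of the 6, 4 were lower in the retained than in the lost kidneys, with a median of -1.96. As for the male-biased genes, this choice makes the count no independent evidence of direction. Their median difference from the controls was 0.82 in the retained kidneys, with 0 called, and 2.70 in the lost kidneys, with 6 called higher. These counts rest on 4 and 14 kidneys and so differ in power. Serpina6, the corticosteroid-binding globulin, had 4.56 in mild 4, 3.21 in moderate 2, 4.39 in moderate 5 and 3.66 in severe 6, where the controls ran from 1.57 to 3.99 (median 2.54) and the lost kidneys from 5.96 to 8.08 (median 7.85). Mild 4 and moderate 5 lay above every control, yet all 4 lay below every lost kidney, with a difference of -3.69 (SE 0.37, adjusted p = 1.28e-06). Prlr, the prolactin receptor, had 2.62 in mild 4, 0.77 in moderate 2, 2.56 in moderate 5 and 0.70 in severe 6, with controls from 0.56 to 1.38 (median 1.07) and the 13 lost kidneys with a value from 2.597 to 5.02 (median 4.75). The retained levels came in 2 steps, moderate 2 and severe 6 within the control range and mild 4 and moderate 5 at the lower edge of the lost range, and the difference was -2.72 (SE 0.42, adjusted p = 0.000301). Abcc3 is given above. Slc7a12, an amino acid transporter, had 3.44 in mild 4, 0.66 in moderate 2, 3.61 in moderate 5 and 1.08 in severe 6 and differed by -1.196 (SE 0.38, adjusted p = 0.0415), a call lost at the omission of any of 11 kidneys, up to an adjusted p of 0.287 by limma without moderate 2. Within 2-fold of the control mean lay 6 of the 6 genes in moderate 2, 5 in severe 6 and 1 each in mild 4 and moderate 5. Bhmt and Gsta2, the remaining pair, differed by -0.68 (SE 0.49, adjusted p = 0.43) and -0.72 (SE 0.40, adjusted p = 0.273). Hpd, which degrades tyrosine and is not one of the 6, had the same 2 steps with 2.65 in mild 4, 0.26 in moderate 2, 2.84 in moderate 5 and 0.61 in severe 6, and differed by -2.85 (SE 0.63, adjusted p = 0.00505) with overlap. In a list of 8 genes known to be higher in female kidneys, 3 were higher and 2 lower in the retained kidneys, with a median of 0.77.

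Of 26 genes of tubular injury and repair, 0 were higher and 3 lower in the retained kidneys, with a median of -1.08. Against the controls the median was 0.57 in the retained kidneys with 0 called, and 1.82 in the lost kidneys with 15 called higher. With 4 retained and 14 lost kidneys, these counts differ in power. Lcn2, a secreted injury marker, had -0.64 in mild 4, -1.05 in moderate 2, -1.16 in moderate 5 and 1.66 in severe 6, where the controls ran from -1.34 to -0.35 (median -0.67) and the lost kidneys from -0.87 to 6.59 (median 1.49). Severe 6 lay above the other retained kidneys and every control, the classes overlapped, and the difference was -2.15 (SE 1.13, adjusted p = 0.242). Havcr1, the injury marker Kim-1, differed by -1.76 (SE 1.00, adjusted p = 0.286), with retained levels between -3.08 and -2.599. Cdkn1a, whose probes disagreed, Serpina10, given above, and Spp1 were the 3 that passed. Spp1, osteopontin, differed by -1.11 (SE 0.35, adjusted p = 0.0411), a call lost without mild 4, moderate 2, moderate 5 or severe 6 (adjusted p from 0.0631 to 0.136 by limma), or moderate 3 (0.0565), and without moderate 4, where the difference was -0.99. Leaving out the 4 lost kidneys of highest Lcn2, chosen after seeing the data, gave 340 higher and 565 lower genes.

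Markers of the proximal tubule and of other cell types are given beside these results. Of 17 markers of the first and second proximal segments 0 passed, with a median of 0.34, but 16 were higher in the retained kidneys and 1 lower. Their mean level ran from 5.86 to 6.34 in the retained, 4.13 to 6.03 in the lost and 5.86 to 6.04 in the control kidneys. Slc34a1, the phosphate transporter, differed by 0.60 (SE 0.24, adjusted p = 0.0988), and Lrp2, megalin, by 0.28 (SE 0.23, adjusted p = 0.502). Of 11 markers of the third segment 2 passed, Slc7a13 and Cyp7b1, and their mean level ran from 5.14 to 5.43, 3.24 to 4.90 and 5.20 to 5.38 in the same order. The median difference of the third-segment list was 0.27, and its mean level includes the 2 called genes. No marker of thick limb and distal tubule (12 tested), collecting duct (11), podocyte (8) or endothelium (8) passed. None of leukocytes (14), urothelium (13) or smooth muscle and fibroblasts (14) did either. The medians of these lists lay between -0.60 and -0.08. Lower in the retained kidneys, though not called, were 11 markers of collecting duct, 14 of smooth muscle and fibroblasts and 12 of urothelium. So were 9 of thick limb and distal tubule, 6 of podocyte, 7 of endothelium and 9 of leukocytes. Umod, of the thick limb, differed by -0.11 (SE 0.12, adjusted p = 0.638). The mean urothelial level ran from -0.52 to 1.54 in the retained, -1.31 to 3.32 in the lost and -1.50 to -0.19 in the control kidneys, and that of leukocytes from -1.39 to -0.49, -1.57 to 0.86 and -1.51 to -0.99. Of 15 cell cycle genes 0 passed (median 0.27), and of 10 imprinted growth genes of the perinatal kidney 1 was lower, Peg3 (-1.200), at -0.93 without moderate 5 and so under 2-fold. The part of cell composition in the differences between the classes was not tested.

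**Figure D4:**
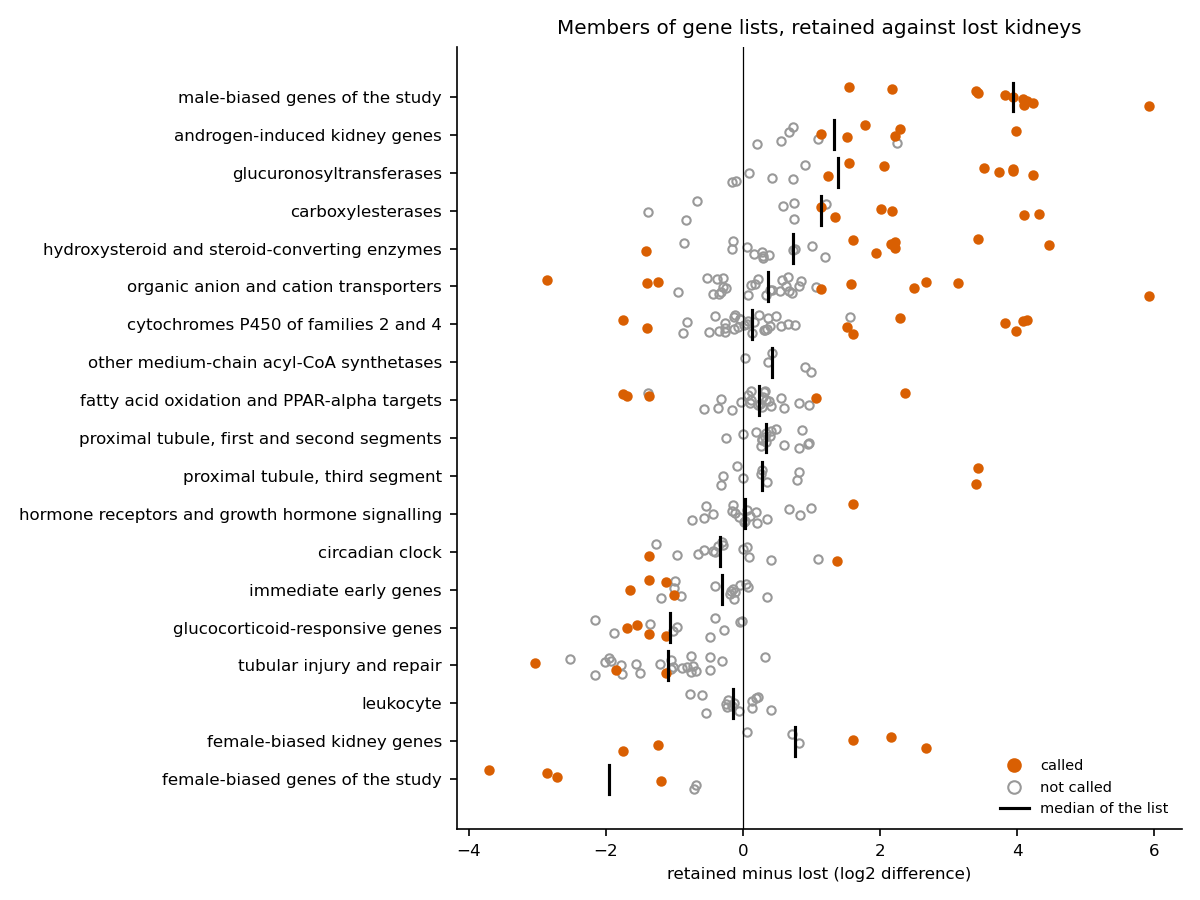
Difference between retained and lost kidneys (log2) of each gene of 19 lists, with called genes filled, other genes open and the list median as a black line. The medians were 1.39 for glucuronosyltransferases and related Ugt enzymes, 1.14 for carboxylesterases and -1.08 for genes of tubular injury. The median was 0.34 for the first and second proximal segments, and single genes of these lists lay on the other side of 0.

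The retained kidneys were not alike among themselves. Moderate 2 and severe 6 both lay above mild 4 and moderate 5 in 225 of the 357 higher genes (63.0%), an order found in 17.8% of all genes, and both below in 136 of the 421 lower genes (32.3%), found in 21.1% of all genes. Severe 3, the lost kidney with the most Acsm3, was the highest lost kidney in 175 higher genes (49.9% of those with a value in every lost kidney) and in 5.39% of all genes, and the lowest in 45 of the lower genes (10.7%) and in 3.63% of all genes. The order follows that of Acsm3 itself, whose contrast chose the kidneys, and is given as a description.

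Some genes of the circadian clock also differed among the retained kidneys. Arntl, the clock activator Bmal1, had -0.51 in mild 4, 0.31 in moderate 2, -0.68 in moderate 5 and 0.36 in severe 6, with controls from -2.18 to -0.79 (median -1.49) and lost kidneys from -2.48 to -0.36 (median -1.83). All 4 lay above every control, and mild 4 and moderate 5 overlapped the lost range. Its difference from the lost kidneys was 1.37 (SE 0.39, adjusted p = 0.0239), a call lost without moderate 2 (adjusted p = 0.0999 by limma) or severe 6 (0.105). Per1, a clock repressor, had 3.69 in mild 4, 3.38 in moderate 2, 3.74 in moderate 5 and 3.13 in severe 6, all below the lost range of 3.86 to 5.60. Its difference was -1.36 (SE 0.36, adjusted p = 0.0149), lost without moderate 2 (0.0562) or severe 6 (0.0695). Per2 had -0.22 in mild 4, -2.36 in moderate 2, -0.28 in moderate 5 and -2.77 in severe 6, and the difference of -0.96 did not pass (adjusted p = 0.162). Of 16 clock genes, Arntl and Per1 were the ones that passed.

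Of 14 glucocorticoid-responsive genes, 0 were higher and 4 lower in the retained kidneys, with a median of -1.07. They were Tsc22d3, Per1, Pdk4 and Mt2, a metallothionein (-1.55, SE 0.35). Tsc22d3, a glucocorticoid-induced leucine zipper protein, had 4.67 in mild 4, 3.11 in moderate 2, 4.63 in moderate 5 and 3.17 in severe 6, where the controls ran from 2.94 to 5.08 (median 4.30) and the lost kidneys from 4.22 to 5.42 (median 4.97). Moderate 2 and severe 6 lay low in the control range and below every lost kidney, mild 4 and moderate 5 inside both ranges. The difference was -1.12 (SE 0.31, adjusted p = 0.0199), and it was lost without moderate 2 (adjusted p = 0.123 by limma) or severe 6 (0.121). Fkbp5, a chaperone of the glucocorticoid receptor, had 4.16 in mild 4, 2.83 in moderate 2, 4.52 in moderate 5 and 2.89 in severe 6 and differed by -0.48 (SE 0.34, adjusted p = 0.414). With mild 4 averaged with moderate 5 and moderate 2 with severe 6, 0 of the 14 genes and 0 of the 16 clock genes passed, and 65 of 92 named genes called between retained and lost kidneys were still called. The labels give neither the hour of collection nor the animal of each kidney, so the part of either was not tested.

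The 15 genes higher in retained kidneys than in controls are given beside the lost kidneys, whose comparison uses the same controls. Ccdc50 had 1.04 in mild 4, 1.08 in moderate 2, 0.99 in moderate 5 and 0.58 in severe 6, with controls from -1.14 to -0.52 (median -0.65) and lost kidneys from 0.70 to 1.02 (median 0.90). All mgb-/- kidneys lay above all controls, with a difference of 1.66 for the retained (adjusted p = 1.98e-08 by limma) and 1.62 for the lost kidneys. Cldn16, a claudin of the thick limb, was higher by 1.51 in the retained and 1.75 in the lost kidneys, and Rasd1, a Ras-like protein induced by dexamethasone, by 1.96 and 2.72. These 3 kept their calls without each kidney in turn, and without moderate 2 or without severe 6 they were the 3 calls left. Gmnc, a regulator of multiciliated cells, stood well above background in 0 of 6 controls, and the retained kidneys were at least 8.77-fold brighter (adjusted p = 0.0105), with levels of -3.84 in mild 4, -2.34 in moderate 2, -3.34 in moderate 5 and -3.52 in severe 6. Lhx9, a homeobox factor, was at least 4.55-fold brighter, with 3 of the 4 retained kidneys well above background. Cebpd, a stress-responsive transcription factor, was higher by 1.199 (adjusted p = 0.0105) and stood below every lost kidney. Ddit4 and Gadd45g, of the stress response, were higher by 1.11 and 1.23, and 1 called probe had no gene name here. The genes of this comparison beyond the 5 largest were named after their values were seen.

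Immediate early genes, which respond within minutes to signals and to tissue handling, were also among the 15. Of 18 tested, 5 were higher in the retained kidneys than in controls, with a median of 1.41. In the lost kidneys 17 were higher, with a median of 1.71. The counts rest on 4 retained and 14 lost kidneys and so differ in power. Fos had 0.01 in mild 4, 0.81 in moderate 2, -0.28 in moderate 5 and 0.83 in severe 6, with controls from -4.49 to -2.59 (median -4.33) and lost kidneys from -1.87 to 2.19 (median 0.33). All mgb-/- kidneys lay above all controls, and the retained kidneys were higher by 4.21 (adjusted p = 0.0278 by limma). Egr1 was higher by 3.54, Egr2 by 3.22, Nr4a1 by 3.09 and Dusp1 by 1.48, and Btg2, an antiproliferative gene outside the list, by 1.78. In the lost kidneys Fos, Egr1, Egr2, Nr4a1, Dusp1 and Btg2 were higher than in controls by 3.87, 3.66, 4.41, 3.24, 1.52 and 2.32. Between retained and lost kidneys 0 of the 18 were higher and 4 lower: Klf6 (-1.12), Atf3 (-1.64), Arc (-1.37) and Fosl2 (-1.01). The Atf3 call was lost without mild 4 (adjusted p = 0.09 by limma) or moderate 5 (0.118), and the Fosl2 call without moderate 5 (0.0595) and at 6 other omissions, where its difference of -0.99 to -0.92 was under 2-fold. Among the calls against the controls, Fos was lost at 8 single omissions and Egr1 at 7, with adjusted p-values up to 0.139 and 0.155, and those of Egr2, Cebpd and Gmnc at 2, moderate 2 (0.0845, 0.101 and 0.101) and severe 6 (0.0747, 0.0748 and 0.0567). Dusp1, Nr4a1, Btg2, Lhx9, Ddit4 and Gadd45g each lost their call at 9 or more single omissions, with adjusted p-values up to 0.25.

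**Figure D5:**
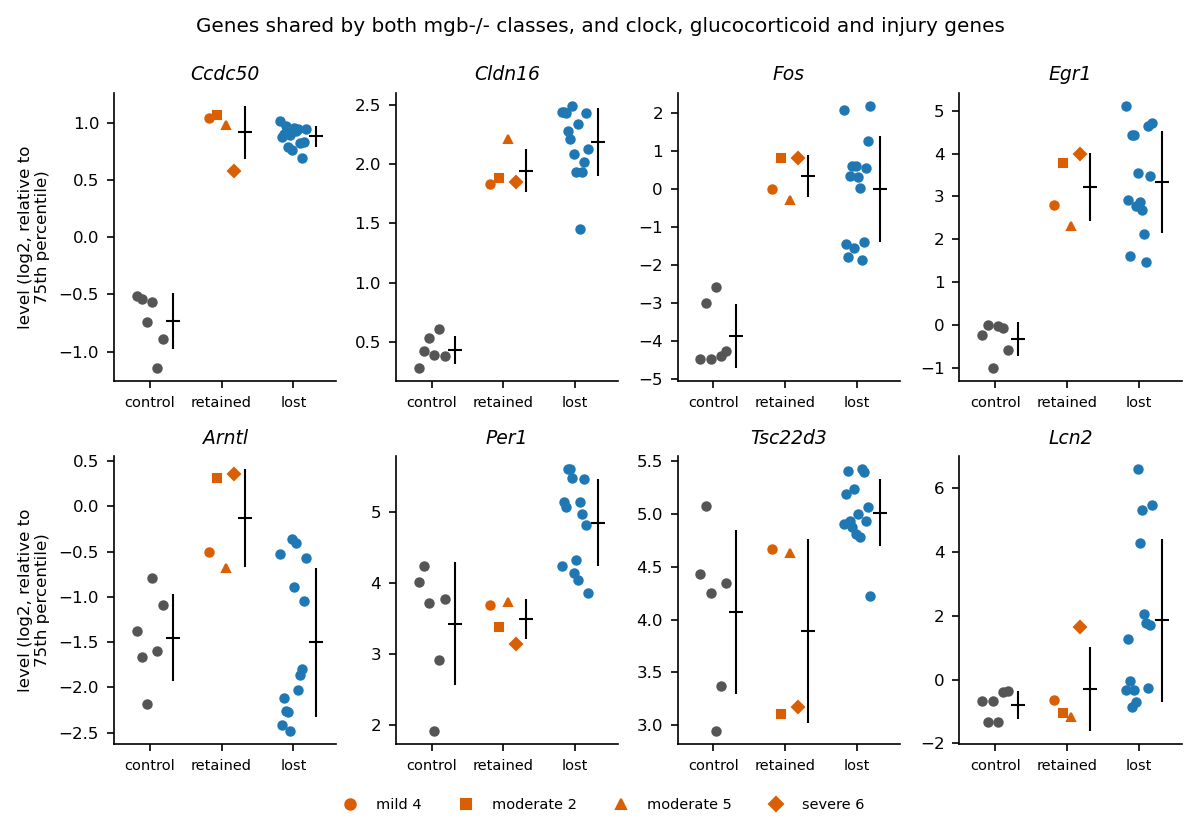
Level (log2, relative to the 75th percentile) of 8 genes in each control, retained and lost kidney, with the mean and SD of each class as black bars. Ccdc50, Cldn16, Fos and Egr1 stand above the controls in retained and lost kidneys alike, Arntl and Tsc22d3 stand apart in moderate 2 and severe 6 from mild 4 and moderate 5, and Lcn2 ran from -1.16 to 1.66 in the retained and up to 6.59 in the lost kidneys.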

How the data were processed

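RNA of 24 whole mouse kidneys was hybridized by the authors to 1-colour Agilent arrays, 1 kidney per array on 3 slides. The deposited scanner files (Agilent Feature Extraction 10.10) hold the intensity of each spot, which the scanner software had corrected for background. The deposited value table holds intensities normalized by the authors, and their log2 values served as an alternative. Here log2 intensity minus the 75th percentile of each array was used. Spots marked as outliers were left out, probes had to be well above background on at least 4 arrays, and the brightest probe stood for a gene. Of 55681 probes, 26762 were named through RefSeq accessions (GRCm38.p6) and 28919 kept their accession. Control, retained and lost kidneys were fitted with limma 3.58.1 (R 4.3.3) over 28455 genes with Benjamini-Hochberg adjustment, and all adjusted p-values are from limma. A call needed an adjusted p under 0.05 and 2-fold, as in the study's methods. Exact tests also used R 4.3.3. The code was tested on simulated data. The 75th percentile of intensity ran from 496 to 968, and precision is limited by how many arrays each class has. Where 1 class was nowhere well above background, a fold given as at least a value is a bound. Log2 differences, as for Cyp3a13, are of the measured signals, and their size is then not settled.

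The kidneys, the gene lists and the tests were chosen with earlier results of these data known. Some genes stand in more than 1 list. Named genes were the list members, the 15 named genes of smallest adjusted p and the 10 largest differences in each direction, and the 5 largest against controls. Other genes, such as Setd4, Cebpd, Btg2, Ddit4 and Gadd45g, were added after their values were seen. Same-numbered kidneys of different groups did not deviate together (33 pairs, mean r 0.05, lowest -0.54), so numbers were not taken as pairs. Alternatives covered scaling, background correction, the value table, the filter, the choice of probe, slide and replicate blocks, grade, array weights, thresholds, the Acsm3 limit and each kidney left out. Some results are not reported here.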

Additional observations from a re-analysis of the deposited data

Results flagged for a closer look

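In 15 of 254 sets of control or retained values (127 genes, 5.91%), 1 kidney lay far from the others of its class, where chance gives about 1 in 20. Among the retained kidneys, Srd5a2 stood at 1.55 in mild 4 against -2.86 to -2.31 in the others, Cited1 at -2.28 in severe 6 against -1.31 to -1.24, Cldn16 at 2.21 in moderate 5 against 1.83 to 1.88, and Akr1c21 at 5.63 in mild 4 against 5.97 to 6.03. Among the controls, control 5 stood apart in Acsm3 (6.05), Abcc3 (0.62), Atf3 (-1.77), Cyp2d34 (-3.08) and Gm5820 (-2.90). Control 2 stood apart in Ces1g (-0.57), Hpd (0.69) and Slc22a27 (0.51), control 3 in Cyp2j13 (4.32) and Egr2 (-5.77), and control 1 in Cebpd (2.52).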

How the results depend on the processing

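The main counts were 357 genes higher and 421 lower in retained than in lost kidneys, 15 between retained kidneys and controls and 1559 between lost kidneys and controls. Quantile normalization (337, 418, 17 and 1418), median scaling (352, 299, 14 and 1486), the compared groups alone (318, 369, 16 and 1519) and grade as a covariate (308 and 320) kept each within 1.5-fold. Normexp gave 122 lower, 9 against controls and 760 for lost kidneys, and the normalized values of the authors gave 228 higher, 192 lower and 854 for lost kidneys. Between retained kidneys and controls the count was 9 without a filter, 6 with slide as a block and 84 with array weights. Without a fold minimum 2072 genes were higher, 1521 lower and 7366 differed between lost kidneys and controls. At a limit of 1.5 log2 units there were 174 higher, 143 lower and 7 against controls, and at 3.5 there were 254 lower and 24 against controls. Acsm3 as a continuous covariate gave 169 lower. Averaging the retained kidneys in pairs, chosen after seeing the data, gave 170 higher, 100 lower and 3 against controls. With the replicate number as a block the counts were 331, 294, 3 and 1508, a pairing that the data did not bear out. Leaving out 1 kidney gave 252 to 414 higher, 257 to 556 lower (257 without moderate 5), 3 to 21 against controls (3 without moderate 2 or severe 6) and 1304 to 1640 for lost kidneys. Of 92 named genes called between retained and lost kidneys, 32 were called in all 43 other settings and 43 in all but 1 to 5. Cyp2d34 reversed with normexp (1.34) and with the mean of its probes (1.02). The cause of these shifts was not tested. Median scaling moved the all-gene median to 0.08, -0.10 and -0.15 in the 3 comparisons. The grade test gave p = 0.497 and 0.669 (exact) at limits of 1.5 and 3.5.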
